A study of Rattus norvegicus with 18 samples.

Results

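ENSRNOG00000001701 and ENSRNOG00000029811 are a pair of genes on chromosome 11 that were near absent in the visceral white adipose tissue (vWAT) of Wistar-Kyoto (WKY) rats and present in that of spontaneously hypertensive rats (SHRs). They are 2 of the 881 genes of chromosome 11 and of the 32883 genes in the count table. They were chosen by this very pattern, so their difference between the strains is described below and not tested. The choice did not use the comparison of SHRs with and without trimethylamine oxide (TMAO), the relation of the genes to each other among SHRs, and the genes around them. The other 30 genes of chromosome 11 that start within the 2.5 Mb from 32 Mb on serve as local background.

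RNA-seq libraries were made from vWAT of 18 male rats, 6 per group. The group labelled WYKW holds WKY rats, which are normotensive (WKY). The group labelled SHRW holds SHRs on tap water (SHR-Water), and the group labelled SHRWT holds SHRs given 1 g/L TMAO in the drinking water (SHR-TMAO). The SHRs were 7 to 8 weeks old at the start and were kept on water or TMAO for 22 weeks. The age of the WKY rats and the number of rats from 1 cage were not given in the sources used here, and the rats were housed 3 to a cage. No WKY rat received TMAO. Strain and hypertension cannot be told apart in this design, since every SHR belongs to the hypertensive strain and every WKY rat to the other.

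The SHR is an inbred strain that develops high blood pressure without any treatment, and the WKY rat is its usual normotensive control. Rats of an inbred strain carry nearly the same alleles, so a gene that depends on such an allele can differ between strains in every animal alike. The fat depot sampled here surrounds the organs of the abdomen. In whole tissue, fewer cells of a type and less RNA per cell cannot be told apart. The deposited table identifies genes by Ensembl identifier and position only, and none of its identifiers matched the reference names used here. The functions of both genes, the markers of the tissue and any pathway list were therefore not analysed here.

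ENSRNOG00000001701 lies on the plus strand of chromosome 11 of the rat build Rnor_6.0, from 33909439 to 33917674. It has 3 exons of 378, 108 and 667 bases, 1153 in all. ENSRNOG00000029811 lies on the same strand from 32440237 to 32447259 and has 2 exons of 181 and 1536 bases, 1717 in all. Neither overlaps another gene of the annotation. Between them lie 1462.179 kb with 19 other genes of the table.

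The authors counted reads on exons, with the strand of the read. Counts per library summed to 10774133 to 18841046 for the WKY libraries, 14939661 to 17251247 for SHR-Water and 14879416 to 18874161 for SHR-TMAO. Genes of the mitochondrial genome took 14.9% ± 5.12, 21.4% ± 5.43 and 16.8% ± 3.52 of them (SD, n = 6 each). Long genes were favoured in some libraries and short genes in others. This length trend, Spearman's rho of a library's deviation from the mean of all libraries with exon length over 12981 genes, averaged -0.072 ± 0.228 for WKY, 0.197 ± 0.30 for SHR-Water and -0.168 ± 0.175 for SHR-TMAO. A level is given below as CPM, counts per 1000000 after TMM normalization, or as FPKM, which also divides by exon length, where genes of different length are compared.

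ENSRNOG00000001701 had 2, 1, 3, 5, 5 and 15 counts in the 6 WKY libraries. In SHR-Water it had 2226 counts in the lowest library and 4210 in the highest, and in SHR-TMAO 3446 and 6005. Its level in WKY was 0.0484 CPM in the lowest library, 0.289 in the median and 0.960 in the highest. In SHR-Water the lowest, median and highest levels were 126, 190.4 and 289 CPM. In SHR-TMAO they were 221, 298 and 333 CPM. The groups of SHRs overlapped each other, and both lay far above every WKY library. WKY averaged 0.348 ± 0.316 CPM, SHR-Water 193 ± 62.0 and SHR-TMAO 283 ± 43.8 (SD, n = 6 each). The fitted log2 fold change was 9.07 for SHR-Water over WKY (standard error 0.46) and 9.63 for SHR-TMAO over WKY (standard error 0.38). Without WKY replicate 6, the highest of its group, the log2 fold changes were 9.72 and 10.31.

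ENSRNOG00000029811 had 4, 9, 5, 5, 4 and 14 counts in the 6 WKY libraries. It had 106 to 193 counts in SHR-Water and 103 to 219 in SHR-TMAO, so it was a gene of low counts in every group. Its lowest, median and highest levels were 0.244, 0.398 and 0.896 CPM in WKY. They were 7.28, 9.14 and 10.5 CPM in SHR-Water and 5.93, 8.92 and 12.2 in SHR-TMAO. Again the 2 groups of SHRs overlapped, and neither overlapped WKY. The means were 0.452 ± 0.231, 8.87 ± 1.30 and 9.0 ± 2.21 CPM (SD, n = 6 each). The fitted log2 fold change over WKY was 4.25 in SHR-Water (standard error 0.29) and 4.28 in SHR-TMAO (standard error 0.31). These 2 sets of values share the WKY libraries.

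**Figure D1:**
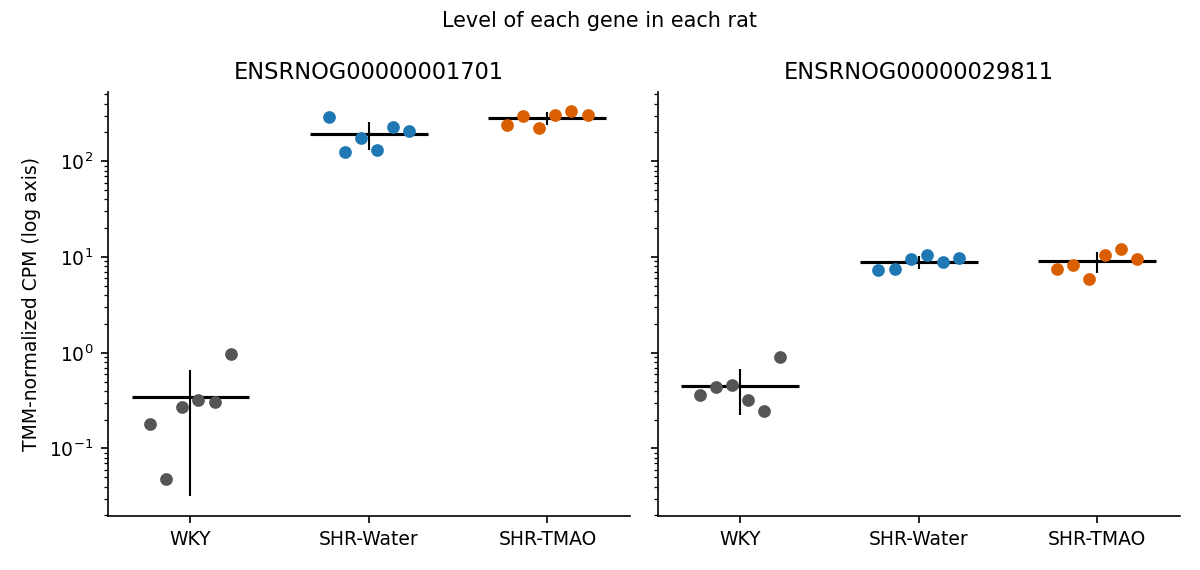
Level of each gene in each rat, in TMM-normalized CPM on a log axis. Points are rats, horizontal lines are means and vertical lines are 1 SD, for 6 rats per group. WKY libraries lie under 1 CPM for both genes, while SHRs lie at 126 CPM and above for ENSRNOG00000001701 and at 5.93 CPM and above for ENSRNOG00000029811.

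Both genes passed the filter on low counts in all 3 fits. Genes were called with edgeR at the limits of adjusted p and fold that the study set for its own test (an adjusted p below 0.05, and 1 or more on the log2 scale in either direction). Called as higher than in WKY were 1.29% of all 13017 genes fitted for SHR-Water and 1.45% of all 12833 for SHR-TMAO, both genes among them. Every SHR library lay above every WKY library for 1.58% of all genes in SHR-Water and for 1.96% in SHR-TMAO. For the 2 genes both follow from how they were chosen, and no test is read from them. Among chromosome 11 genes above 1 CPM in every SHR library, the mean over the 12 SHRs was 683 times the WKY mean for ENSRNOG00000001701, and 19.8 times for ENSRNOG00000029811. Only ENSRNOG00000001699, with 179 times, stood between them. The next such gene, at 72083217 to 72086743, had 2.90 times. Genes that were lower than 1 CPM in some SHR library are not in this order, among them neighbours of ENSRNOG00000001701 described below.

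Per length, the 2 genes differed strongly from each other. ENSRNOG00000001701 averaged 167 ± 35.9 FPKM for SHR-Water and 238 ± 33.2 for SHR-TMAO (SD, n = 6 each). ENSRNOG00000029811 had 5.39 ± 1.29 and 5.08 ± 1.21 FPKM. Ranked by FPKM among the genes with a count in the same library, the former stood in the top 2.15% to 3.46% in SHR-Water and the top 1.98% to 2.70% in SHR-TMAO. The latter stood in the top 39.2% to 47.1% and the top 35.6% to 48.0%. In WKY rats, the level of ENSRNOG00000001701 was 0.299 ± 0.273 FPKM and that of ENSRNOG00000029811 0.266 ± 0.136. Thus the genes were far apart in SHRs and within 1 SD of each other in WKY.

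Neither gene was listed at 0 in any WKY library. The WKY levels of ENSRNOG00000001701 were 0.0252% to 0.499% of the SHR-Water mean, and those of ENSRNOG00000029811 were 2.75% to 10.1%. For both genes WKY replicate 6 was the highest, with 15 and 14 counts. The other 5 WKY libraries had 0.0484 to 0.321 CPM of the former and 0.244 to 0.456 of the latter. At the depth of these libraries, 3 counts make 0.159 to 0.278 CPM, so most WKY levels are close to what a handful of reads gives.

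The contrast between the 2 groups of SHRs, which played no part in the choice of the genes, asks whether TMAO moved them. ENSRNOG00000001701 was 1.497-fold higher in SHR-TMAO (log2 fold change 0.58, standard error 0.20, 95% interval 0.13 to 1.03). All 6 SHR-TMAO rats lay above the SHR-Water median and 4 of them above the highest SHR-Water rat. The difference did not pass the test (edgeR's quasi-likelihood test, unadjusted p = 0.0120, adjusted p = 0.121 over 12852 genes). No gene of the table passed it (0.0% called by edgeR). The study itself, with DESeq2 at the limits given above, listed genes as changed between these groups in either direction. By edgeR 3212 genes, or 25.0%, had an unadjusted p under 0.05. ENSRNOG00000001701 is 1 of these 3212. Limma with sample quality weights gave it an adjusted p of 0.00699 at a log2 difference of 0.78, which is under the fold limit. DESeq2 gave an adjusted p of 0.0655. Without SHR-Water replicate 1, the highest of its group, edgeR's log2 difference was 0.74 with an adjusted p of 0.0304, again under the fold limit.

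ENSRNOG00000029811 had a log2 difference of 0.054 between SHR-TMAO and SHR-Water (standard error 0.18, edgeR adjusted p = 0.873). Its 95% interval, -0.35 to 0.46, leaves room for a fold change between 0.784 and 1.37. Of the 6 SHR-TMAO rats, 3 lay above the SHR-Water median. The sign turned with the scaling: on library totals without TMM factors the log2 difference was -0.084 (edgeR adjusted p = 0.822).

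A ratio of both genes in 1 library does not depend on how libraries are scaled. It can still follow the gene length trend, as given below for SHR-Water. The test of the ratio was not corrected for that trend, and its part in the group difference was not tested. The FPKM of ENSRNOG00000001701 was 18.7 to 59.1 times that of ENSRNOG00000029811 in SHR-Water, with a mean of 33.4 ± 14.3. In SHR-TMAO it was 40.8 to 55.4 times, with a mean of 47.8 ± 5.53 (SD, n = 6 each). SHR-Water replicate 1 alone lay above all SHR-TMAO rats, and the other 5 SHR-Water rats lay below all of them. The mean log2 ratio was higher by 0.61 in SHR-TMAO, or 1.52-fold (two-sided exact permutation test over 462 splits, p = 0.0346, where the smallest p that can be reached is 0.00216). Leaving out 1 rat at a time gave an exact p of 0.0519 to 0.0649 in 8 of 12 cases and of 0.00216 to 0.0476 in the other 4. The lowest of these belongs to the set without SHR-Water replicate 1.

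Among the 6 SHR-TMAO rats the genes rose and fell together, with Pearson's r = 0.94 (exact permutation p = 0.00139, adjusted 0.00278 over 2 groups) and Spearman's rho = 1.00 (exact p = 0.00278, adjusted 0.00556). Without the 2 rats farthest from the median, r was 0.96. Among the 6 SHR-Water rats r was -0.31 (exact permutation p = 0.526) and rho -0.37 (exact p = 0.497), and r was -0.89 without the 2 farthest. That value rests on single rats. Without SHR-Water replicate 1 it was 0.19 (exact p = 0.833), and without replicate 2 it was -0.92 (exact p = 0.0333). The difference between the 2 groups was not tested. How many other genes were as strongly related to either gene in the same rats was not counted, so the relation is not shown to be particular to this pair.

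ENSRNOG00000001701 also moved with the gene length trend of the libraries. This trend is built from the levels of many genes, and how many others follow it as closely was not counted. The relation is therefore not shown to be particular to this gene. In SHR-Water its level had r = -0.92 with the length trend (exact permutation p = 0.0139, adjusted 0.0417 over 6 relations) and rho = -0.89 (exact p = 0.0333, adjusted 0.10), and r was -0.86 without the 2 farthest rats. In SHR-TMAO r was -0.51 (exact p = 0.290) and rho -0.49 (exact p = 0.356). The level of ENSRNOG00000029811 had r = 0.37 in SHR-Water (exact p = 0.450) and -0.37 in SHR-TMAO (exact p = 0.463). The ratio of the genes had r = -0.89 in SHR-Water (exact p = 0.00972, adjusted 0.0417) and 0.10 in SHR-TMAO (exact p = 0.865). The 3 SHR-Water libraries with a trend of 0.45 to 0.46 had the 3 lowest levels of ENSRNOG00000001701. With the length trend of each library as an offset, the log2 difference of ENSRNOG00000001701 between SHR-TMAO and SHR-Water was 0.38 in place of 0.58 (edgeR adjusted p = 0.161). The offset turned that of ENSRNOG00000029811 to -0.068 (edgeR adjusted p = 0.850).

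**Figure D2:**
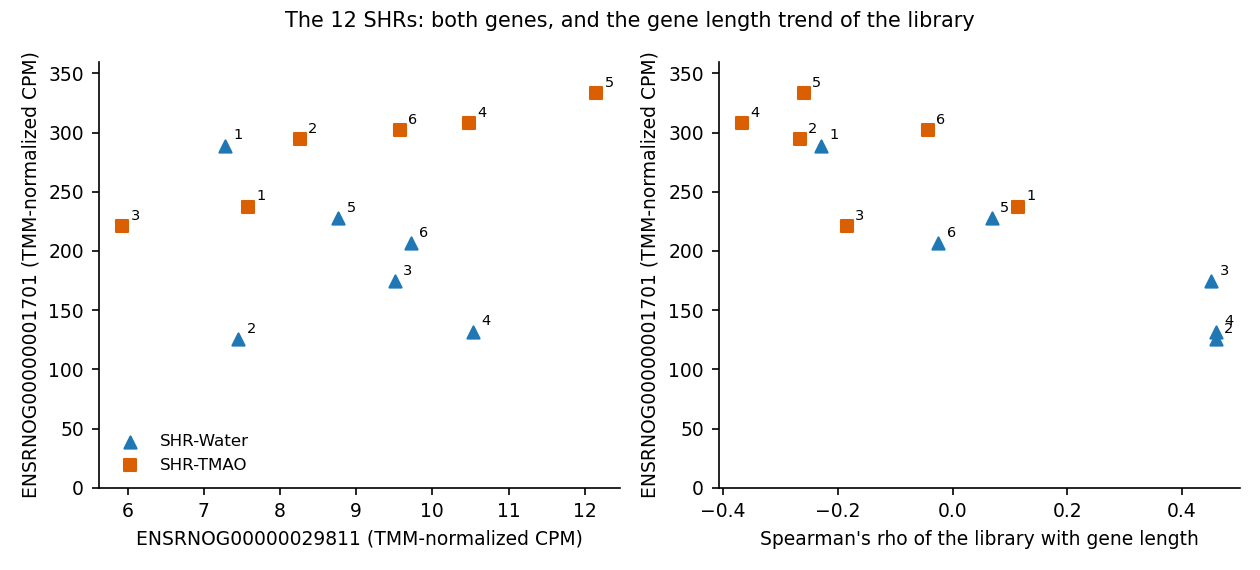
The 12 SHRs by the level of ENSRNOG00000001701 (TMM-normalized CPM, vertical axes) against the level of ENSRNOG00000029811 (TMM-normalized CPM, left) and against Spearman's rho of the library with gene length (right). Numbers are replicates. The 6 SHR-TMAO rats lie along a rising line on the left (r = 0.94), and the SHR-Water rats along a falling one on the right (r = -0.92).

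ENSRNOG00000001701 did not stand alone on its stretch of the chromosome. It closed a run of 14 genes in a row, from 33084579 on, each under 1 CPM in every WKY library. Of these, 5 had at least 20 counts over the SHR libraries, and they lay within 135.805 kb from 33781870 to 33917674. Apart from ENSRNOG00000001701 these were ENSRNOG00000001699, ENSRNOG00000049911, and a gene each at 33812989 to 33815418 and at 33887142 to 33893433. Together the other 4 genes had 3 counts in the 6 WKY libraries, all of ENSRNOG00000001699 in WKY replicate 1, against 1019 in SHR-Water and 1572 in SHR-TMAO. Another 5 genes of the run had no count in any of the 18 libraries.

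ENSRNOG00000001699, on the minus strand at 33781870 to 33801999, had 76 to 149 counts per library in SHR-Water and 81 to 224 in SHR-TMAO. Its level was 7.23 ± 1.88 CPM in SHR-Water and 8.88 ± 2.28 in SHR-TMAO, against 0.0451 ± 0.110 in WKY (SD, n = 6 each). It was called in both comparisons (edgeR log2 fold change 7.40 in SHR-Water and 7.71 in SHR-TMAO), higher in 6 of 6 SHRs of each group. With 3 counts in WKY it passed the filter through its SHR levels alone, so no test is read from these calls. Without WKY replicate 1, which held its only WKY counts, the log2 fold changes were 9.87 and 10.16. No WKY count was left there, so these values depend on the prior count of the fit. ENSRNOG00000049911, on the plus strand at 33812662 to 33865933, had 0 counts in all 6 WKY libraries, 7 to 49 in SHR-Water and 46 to 131 in SHR-TMAO. It was called against WKY in SHR-TMAO, where it too passed the filter through its SHR levels alone, and no test is read from that. In SHR-Water it was too low for the filter. The gene at 33887142 had 0 counts in WKY, 8 to 36 in the SHR libraries, and was not tested against WKY. Since the fitted fold change of a gene at 0 depends on the prior count, ratios of summed counts are given in its place.

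Summed over libraries and divided by the library totals, ENSRNOG00000001701 was 559-fold higher in SHR-Water than in WKY (95% exact interval 394 to 824). ENSRNOG00000029811 was 20.1-fold higher (14.7 to 28.2). ENSRNOG00000001699 was 220.5-fold higher on 709 against 3 counts (75.1 to 1072). Against a floor of 3 counts over the 6 WKY libraries, or 0.0334 CPM, ENSRNOG00000049911 was at least 57.5-fold higher, the gene at 33887142 at least 31.7-fold and the gene at 33812989 at least 7.15-fold. The lower ends of the 95% exact intervals of these 3 genes, which allow more than 3 counts, were 46.3, 25.3 and 5.36. In SHR-TMAO the ratio was 799.9 for ENSRNOG00000001701, 19.3 for ENSRNOG00000029811 and 262 for ENSRNOG00000001699. Against the same floor the genes at 0 were at least 147-fold, 47.0-fold and 8.87-fold higher, and the lower ends of their exact intervals were 119, 37.8 and 6.78. These intervals and bounds cover counting error only. The bounds follow the number of SHR counts, so they give no order among the 3 genes at 0.

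**Figure D3:**
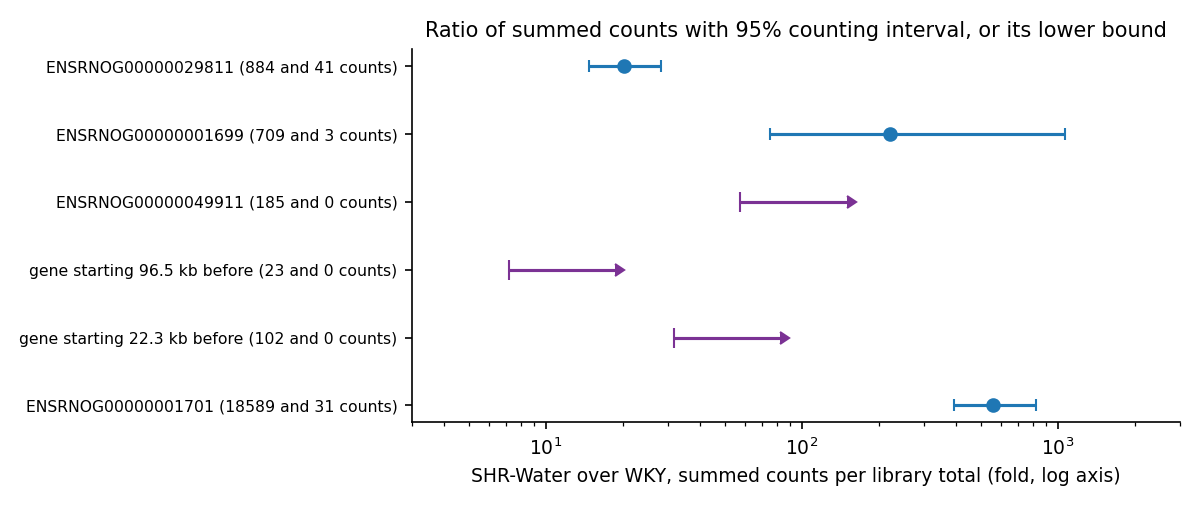
Ratio of summed counts per library total, SHR-Water over WKY, on a log axis, for the 2 genes and the neighbours of ENSRNOG00000001701 with counts. Points with bars are ratios with their 95% counting interval. Vertical ticks with arrows are bounds against the floor of 3 counts for genes with 0 counts in WKY. The summed counts of SHR-Water and WKY stand in brackets, and distances are between gene starts and the start of ENSRNOG00000001701. ENSRNOG00000001701 has a ratio of 559, within the interval of ENSRNOG00000001699, and ENSRNOG00000029811 a ratio of 20.1.

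The genes next to the run had counts in WKY. The next gene after ENSRNOG00000001701, at 33925498 to 34027435, starts 7.823 kb behind its end and had 2436 counts in WKY. WKY rats had 26.9 ± 5.16 CPM of it, SHR-Water rats 41.2 ± 5.61 and SHR-TMAO rats 30.2 ± 7.73 (SD, n = 6 each). Its log2 difference from WKY was 0.60 in SHR-Water (edgeR adjusted p = 0.0198), under the fold limit, and 0.16 in SHR-TMAO (edgeR adjusted p = 0.639). On the other side, the last gene before the run, at 32769165 to 33003021, had 126 counts in the WKY libraries, 322 in those of SHR-Water and 213 in those of SHR-TMAO. It was called in SHR-Water against WKY (edgeR log2 fold change 1.25, standard error 0.30, adjusted p = 0.0256) and not in SHR-TMAO (0.72, edgeR adjusted p = 0.201). Without SHR-Water replicate 4 the former call was lost. These flanking genes are 922.476 kb apart.

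ENSRNOG00000029811 was not part of such a run. The gene 3.327 kb behind its end, at 32450587 to 32460238 on the same strand, averaged 11.9 ± 2.42 CPM for WKY, 8.50 ± 2.49 for SHR-Water and 13.3 ± 3.92 for SHR-TMAO (SD, n = 6 each). It was not called against WKY (log2 difference -0.50 in SHR-Water with edgeR adjusted p = 0.181, and 0.16 in SHR-TMAO with adjusted p = 0.708). On the other side the nearest tested gene, 176.337 kb before, had 27.0 ± 7.99, 19.9 ± 7.0 and 29.7 ± 7.78 CPM and was not called either (edgeR adjusted p = 0.270 and 0.771). The gene at 32539683 to 32550539, 92.423 kb behind, had 41.1 ± 4.97, 48.5 ± 5.26 and 45.4 ± 3.73 CPM, again without a call (edgeR adjusted p = 0.273 and 0.496). The other near neighbours tested, 2 before ENSRNOG00000029811 (from 31893489 and from 32081574) and 2 behind ENSRNOG00000001701 (from 34051993 and from 34352287), were not called. Their log2 differences from WKY were -0.31 to 1.39 in SHR-Water (edgeR adjusted p = 0.0867 to 0.931) and -0.32 to 0.36 in SHR-TMAO (edgeR adjusted p = 0.520 to 0.797).

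**Figure D4:**
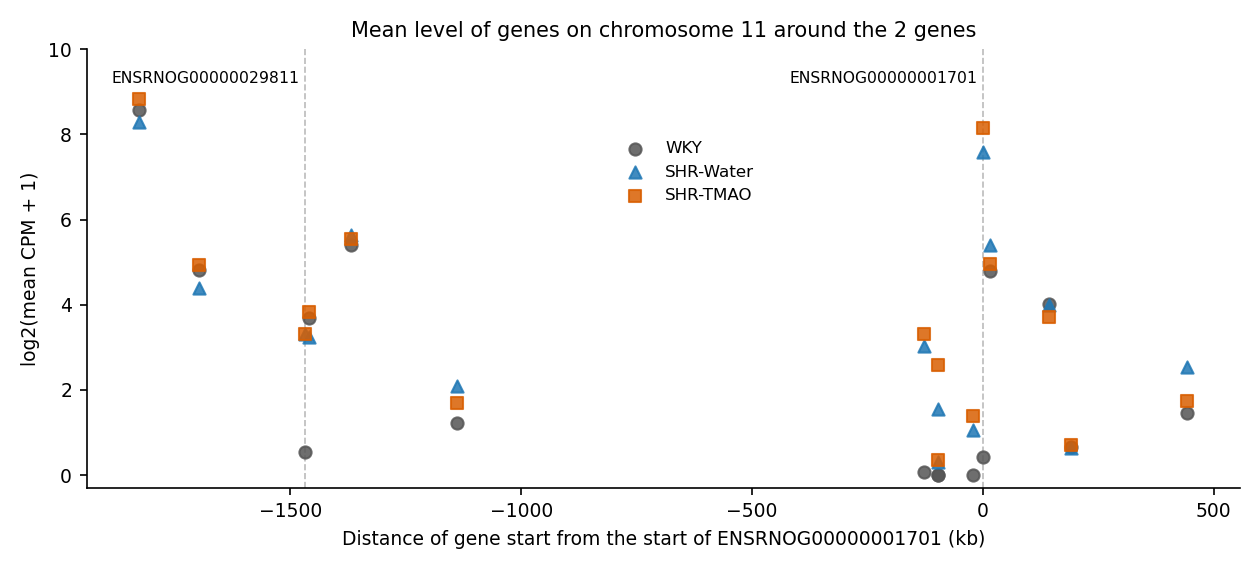
Mean level in each group, as log2 of mean CPM plus 1, of the 15 genes of chromosome 11 in the 2.5 Mb from 32 Mb on with at least 40 counts over the 18 libraries, by the distance of their start from that of ENSRNOG00000001701 in kb. Dashed lines mark the 2 genes. WKY points lie far below SHR points at ENSRNOG00000029811, and at ENSRNOG00000001701 and genes just before it.

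Over the whole local background, 9 of the 30 genes could be tested between SHR-Water and WKY and 2 were called, ENSRNOG00000001699 and the gene at 32769165, both higher in SHR-Water. The median log2 difference of the 9 was 0.22, against -0.0041 over all genes tested, of which 3.42% were called. Between SHR-TMAO and WKY 2 of 10 were called, both from the run, with a median of 0.20 against -0.021 and with 3.62% of all genes called. Outside the run the counts were 1 of 8 and 0 of 8. The genes of the run could be tested only through their SHR levels. Their calls were thus largely set by the filter, and the local shares with them are no test against the whole table. Of all other chromosome 11 genes tested, 11 of 320 and 14 of 316 were called, shares of 3.44% and 4.43%, close to those of the whole table. The 2 comparisons share the WKY libraries.

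Between SHR-TMAO and SHR-Water none of the 11 local genes tested was called by edgeR (0.0% of all genes). An unadjusted p under 0.05 was found for 5 of them, against 25.0% of all genes tested. Of these, 1 was among the 3 tested in the run and 4 were among the 8 outside it. The nearest to a call was ENSRNOG00000049911, which had 0.395 to 3.16 CPM in SHR-Water (1.93 ± 1.06) and 3.30 to 8.22 in SHR-TMAO (5.01 ± 1.96, SD, n = 6 each). Every SHR-TMAO rat lay above every SHR-Water rat, as for 0.739% of all genes tested. Its log2 difference was 1.41 (standard error 0.41, edgeR adjusted p = 0.0931). DESeq2 called it (1.41, adjusted p = 0.0175), and so did limma with sample quality weights (1.75, adjusted p = 0.00829). So did edgeR without SHR-Water replicate 1 (adjusted p = 0.0346) or without SHR-TMAO replicate 1 (adjusted p = 0.0420). ENSRNOG00000001699 had a log2 difference of 0.33 (edgeR adjusted p = 0.371) and the gene at 33887142 one of 0.61 (edgeR adjusted p = 0.354). The values of all 3 and of ENSRNOG00000001701 were positive, and none passed edgeR's test. This was not particular to the run. Outside it the genes from 32081574, 32211115 and 32450587 had log2 differences of 0.57, 0.61 and 0.68. The other genes tested there had -1.01 to -0.063. With the length trend as offset, ENSRNOG00000001699 had 0.22, the gene at 33887142 had 0.32 and ENSRNOG00000049911 had 1.35.

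Some genes of the run list an exon as long as the middle exon of ENSRNOG00000001701, which has 108 bases. An exon of exactly this length is listed for 4 of the 10 other genes from 33781870 on up to its end. These are ENSRNOG00000049911 and the genes at 33812989, 33845463 and 33887142. The share is 4.69% over all genes in the table and 6.34% over genes with exons of more than 1 length. All 4 lie on the same strand as ENSRNOG00000001701. The gene at 33887142 has, like it, 3 exons, of 280, 108 and 437 bases, and so has that at 33845463, with 289, 108 and 546 bases. This exon length was looked at after the values were seen, and ENSRNOG00000029811 has no such exon. ENSRNOG00000049911 spans 6 other genes of the same strand, and 1 of its exons is that of the gene at 33845463. The counting assigned no read that fell on more than 1 gene, so the counts of ENSRNOG00000049911 and of the genes within its span are uncertain. ENSRNOG00000001701 starts outside that span and overlaps none of them.

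The pattern of the 2 genes was counted over the table at limits close to their own values. Their highest WKY levels were 0.960 and 0.896 CPM, and the lowest SHR level of ENSRNOG00000029811 was 5.93. At limits of 0.5 and 10 CPM 0 genes had the pattern. ENSRNOG00000001699 missed the limits below through 4.29 CPM in SHR-Water replicate 2. With every WKY library under 1 CPM and every SHR library over 5 CPM, it was found for 5 of 32883 genes (0.0152%), genes without any count included. Of these 2 were on chromosome 11, 2 on chromosome 1 and 1 on chromosome 10. ENSRNOG00000001701 had the highest SHR level of the 5, with a mean of 238 CPM over the 12 SHRs, and the next had 15.9. ENSRNOG00000029811 ranked 4 among them with 8.93. The reverse pattern was found for 3 genes (0.00912%), on chromosomes 1, 7 and 10.

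Likeness of levels over all 18 libraries mostly repeats the strain difference. By Pearson's r of log2(CPM + 1) among 13324 genes, the genes most like ENSRNOG00000001701 were ENSRNOG00000001699 (r = 0.99), a gene on chromosome 10 at 82232107 to 82252963 (0.99), one on chromosome 15 at 42757235 to 42794279 (0.98), ENSRNOG00000029811 (0.98) and one on chromosome 20 at 13817795 to 13825475 (0.98). Those most like ENSRNOG00000029811 were ENSRNOG00000001701, the same gene on chromosome 10 (0.98), a gene on chromosome 1 at 252944103 to 252946170 (0.98), ENSRNOG00000001699 (0.98) and a second on chromosome 1 at 189289957 to 189395276 (0.98). The points fall into a WKY and an SHR cluster, and so these values carry no more than that split.

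With the mean of each group taken off, over the 12 SHRs, the likeness changed. The 2 genes had r = 0.22 with each other, and ENSRNOG00000029811 ranked 4884 among 13324 genes by likeness to ENSRNOG00000001701. ENSRNOG00000001699 had r = 0.55 (rank 2759) and ENSRNOG00000049911 r = 0.63 (rank 2129) with ENSRNOG00000001701. Local genes outside the run, present in WKY, were more like it. Those from 32081574, 32211115 and 32450587 had r of 0.91 (rank 55), 0.84 (rank 447) and 0.74 (rank 1324). The remaining genes of the local background had r of -0.70 to 0.33 with ENSRNOG00000001701. The 5 most like it had r of 0.94 to 0.97, namely a gene on chromosome X at 157353577 to 157372809, 2 on chromosome 12, at 17395624 to 17405103 and at 30464676 to 30491102, 1 on chromosome 5 at 150001281 to 150027049 and 1 on chromosome 11 at 45304068 to 45330481. Unlike ENSRNOG00000001701 they were present in WKY, at 12.1 to 83.7 CPM. For ENSRNOG00000029811 the 5 highest r were 0.88 to 0.90, for genes on chromosomes 10, 1, 16, 3 and 16 with mean levels of 0.549 to 7.82 CPM. The gene length trend differed among the libraries of a group, as given above, and its part in these values of r was not tested.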

How the data were processed

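RNA-seq was done on vWAT of 18 rats. Per the submitters' processing notes, reads were handled with cutadapt 2.5, HISAT2 2.1.0 and featureCounts 1.6.3. The authors deposited whole-number counts per gene, neither normalized nor filtered. The table's header records the Ensembl release 96 annotation of Rnor_6.0, a build made from another strain, and counting on exons with the strand setting 2, without reads that match several places or several genes. The methods of the study name GENCODE. Per those methods, RNA was extracted with TRIzol and libraries were made with SMART technology. The sample labels name standard Illumina library protocols instead.

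Counts were compared with the quasi-likelihood test of edgeR 4.0.16 (R 4.3.3) on the 2 groups concerned, after filterByExpr and TMM scaling. Benjamini-Hochberg adjustment ran over all genes tested. A call needed an adjusted p below 0.05 and a change of 1 or more on the log2 scale. DESeq2 1.42.0 and limma 3.58.1 (voom) were alternatives. FPKM, correlations and exact permutation tests, all two-sided, were computed in Python 3.11.15 with scipy 1.17.1. Exact tests used 462 splits or 720 orderings of the rats. Ratios of summed counts have 95% exact binomial intervals, and a floor of 3 counts stands for 0. The edgeR fit was tried on simulated counts with the same dispersion for all genes and no gene length trend. That trial does not cover the trends of these libraries. Low counts, as in WKY, limit precision.

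The members and the lists were chosen with earlier results of these data known. Named were the 2 genes, local genes called, the 3 nearest tested genes on each side of each (by position), and the 5 most alike. Of 32883 identifiers, 0 matched the RefSeq names, so the lists of syntenic neighbours, reductases, calcineurin signalling and cell type markers, and sequences, were not analysed here. Groups and replicate numbers came from the sample titles. The gene run, the exon lengths and the length trend relations were examined after the values were seen.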

Additional observations from a re-analysis of the deposited data

Results flagged for a closer look

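WKY replicate 6 stood apart from the other WKY rats for both genes. For ENSRNOG00000001701 it had 0.960 CPM, while the other 5 WKY libraries had 0.0484 to 0.321. For ENSRNOG00000029811 it had 0.896 CPM, while the others had 0.244 to 0.456. These are 15 and 14 counts. In both cases the gap to the nearest library, 0.701 and 0.675 of the whole range, exceeded Dixon's 95% critical value. Of 17 groups of values looked at 2 were so marked, and chance marks about 1 in 20. The same library was also the highest in WKY for the other 3 genes that were near absent in WKY and present in every SHR, with 13 counts in sum or 2.72% of the SHR-Water level, against 0.476% to 1.47% in the other WKY libraries. Without WKY replicate 6, the fitted log2 fold change of ENSRNOG00000001701 over WKY was 9.72 for SHR-Water and 10.31 for SHR-TMAO, in place of 9.07 and 9.63. For ENSRNOG00000029811 it was 4.57 and 4.62, in place of 4.25 and 4.28.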

How the results depend on the processing

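Both genes kept their direction against WKY in all 21 alternatives each. With 1 rat left out, the log2 fold change over WKY was 8.81 to 9.72 in SHR-Water and 9.34 to 10.31 in SHR-TMAO for ENSRNOG00000001701, and 4.12 to 4.57 and 4.16 to 4.62 for ENSRNOG00000029811. Between SHR-TMAO and SHR-Water, no alternative called either gene at both thresholds. Leaving out 1 rat gave 0.48 to 0.74 for ENSRNOG00000001701 (edgeR adjusted p = 0.0304 to 0.243) and -0.054 to 0.15 for ENSRNOG00000029811. The latter reversed on library totals (-0.084), with the length trend as offset (-0.068) and without SHR-TMAO replicate 5 (-0.054), always within its standard error of 0.18. The cause was not tested.

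Local genes called between SHR-Water and WKY, 2 in the edgeR fit, were 5 with DESeq2 and 5 without the filter, where more genes of low count were tested, 4 with all 18 samples in 1 fit, and 1 to 5 with 1 rat left out. They were 1 without SHR-Water replicate 4, 4 without WKY replicate 3, WKY replicate 6 or SHR-Water replicate 2, and 5 without WKY replicate 2. Between SHR-TMAO and WKY, also 2, they were 4 with DESeq2, 4 without the filter and 2 to 3 with 1 rat left out. Between SHR-TMAO and SHR-Water, 0 with edgeR, they were 1 with DESeq2, 2 with limma and 0 to 1 with 1 rat left out, where the 1 came without SHR-Water replicate 1 or SHR-TMAO replicate 1. Over all of chromosome 11 the counts against WKY were 11 and 14.

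Without mitochondrial genes in the totals, ENSRNOG00000001701 had 345 CPM in SHR-TMAO and ENSRNOG00000029811 10.7 CPM in SHR-Water. The log2 difference in the ratio of the genes was 0.46 to 0.79 with 1 rat left out (exact permutation p = 0.00216 to 0.0649). Their correlation ran from -0.92 to 0.19 in SHR-Water, reversed at 0.19 without replicate 1 and past the threshold at -0.92 without replicate 2, and from 0.88 to 0.98 in SHR-TMAO. Genes absent in WKY and present in SHRs were 5, and 5 to 7 with 1 rat left out, but 0 at limits of 0.5 and 10 CPM, where ENSRNOG00000001701 drops out through WKY replicate 6. Genes of the reverse pattern were 3, with 3 to 4 with 1 rat left out and 5 at limits of 2 and 4 CPM.

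Replicate numbers were not taken to pair the rats, since not every pair of same-numbered rats had deviations from the group means that correlated above 0.1. Between SHR-TMAO and SHR-Water 0 of 6 pairs did (-0.41 to -0.0083), between SHR-TMAO and WKY 1 of 6 (-0.24 to 0.31) and between SHR-Water and WKY 5 of 6 (-0.33 to 0.57). With the replicate number as a block, the log2 difference was 0.64 for ENSRNOG00000001701 (edgeR adjusted p = 0.323) and 0.030 for ENSRNOG00000029811 (adjusted p = 0.940), and local genes called were 2, 2 and 0 as before.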

Other observations

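Among all genes in chromosomal order, with those under 40 counts over the 18 libraries left aside, a run of at least 3 in a row under 1 CPM in every WKY library and over 10 times higher in SHRs, with 40 or more SHR counts each, occurred at 2 places. One was the run around ENSRNOG00000001701, with 5 genes, 34 counts in WKY and 49148 in the SHRs. The other was on chromosome 13 at 52645257 to 52752997, with 3 genes, 36 counts in WKY and 2328 in the SHRs. No run of the reverse kind was found. The search was made after the values of the first run were seen, and no test was made of how often such runs arise.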
